A study of Saccharomyces cerevisiae with 22 samples.

Results

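Chromosome 3 of Saccharomyces cerevisiae carries the mating-type locus MAT, the silent mating cassettes HML and HMR, and, at its left end, a native copy of the retrotransposon Ty5. All 1-kb bins of this chromosome were taken, 317 of the 12073 bins that cover the positions in the data. They were divided by position into 5 bins of the native Ty5 left end, 2 of HML, 4 of MAT, 2 of HMR and 304 of the rest of the chromosome. The value of a bin is its number of distinct insertion sites, where a site is 1 chromosome, position and direction, whatever its reads.

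The study mapped insertions of Ty5 as calling cards: joined to part of Sir4, the partner of the Ty5 integrase, a transcription factor steers the element to insert near the DNA it occupies. Its 22 libraries were made from colonies that were His+ and resistant to FOA, and 8 of the factors were tagged with barcodes and pooled in 1 experiment with 2 replicates, which the design text calls biological. Multiplex libraries are those of Gal4, Kar4, Lee1, Rgm1, Rpi1, Sef1, Sfg1 and Yrm1. Single libraries were made with Gal4, Leu3 or Gcn4 fused to Sir4 and overexpressed from a plasmid, with a Thi2-Sir4 fusion at the native THI2 locus, from cells starved of thiamine or grown in complete medium, and with no fusion at all.

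The multiplex, plasmid and fusion-free libraries came from a diploid, MATa/MATα, that was homozygous for his3∆1, leu2∆0, ura3∆0, sir4::KanMX and trp1::Hyg, and heterozygous at MET15 (met15∆0/MET15) and LYS2 (LYS2/lys2∆0). The Thi2 libraries came from a haploid MATa strain with THI2::sir4, trp1::Hyg, sir4::KanMX, ura3∆0, met15∆0, leu2∆0 and his3∆1. All groups therefore lack native SIR4, and the library with no fusion is called Sir4-free below. Cells grew in synthetic medium with glucose or galactose, with the sugar of each library not given in the sources used here. Each single library has no replicate, so tests that use them compare 2 libraries and not 2 conditions, and a Thi2 library differs from the Sir4-free library in ploidy and mating type as well as in the fusion.

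In yeast, MAT is expressed and sets the mating type, while HML and HMR hold unexpressed copies of mating-type genes that serve as donors for switching. Sir proteins, Sir4 among them, silence HML and HMR and the chromosome ends, and native Ty5 inserts into that silent chromatin because its integrase binds Sir4. Chromosome 3 also holds genes that act in mating: FUS1 in cell fusion, FIG2 in the mating cell wall, and KAR4, which encodes the pheromone-induced factor for nuclear fusion that is one of the 8 multiplex fusions.

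Insertions were amplified from primers in Ty5, and this chromosome carries a resident Ty5, although whether that copy holds the primed sequence was not tested. The primer with the Ty5 end is shown for that reason, with the 18 bases after the stretch that it shares with the second primer in capitals:
OM8714: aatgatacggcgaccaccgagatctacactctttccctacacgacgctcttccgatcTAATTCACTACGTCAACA
Its 75 bases are those given in the extraction protocol, which says that the primers anneal to Ty5.

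The 22 libraries held 4755 to 79573 sites, of which 52 to 2318 lay on chromosome 3. The sparsest on the chromosome was Rgm1 replicate 1 and the fullest was Sir4-free. Shares below are percent of a library's sites, with exact (Clopper-Pearson) 95% intervals. Each interval comes from the sites of 1 library, so it covers counting error only and leaves out variation between libraries. Reads from PCR are not independent molecules, and no reads enter the intervals. No genome build being given in the sources used here, coordinates are those of the data, and bins are named after genes whose 5′ end lies in them or within 500 bp in the R64 annotation. Bins were tested across the whole genome, by edgeR for the multiplex libraries and, for single libraries, with Fisher's exact test (two-sided), and called at a Benjamini-Hochberg adjusted p below 0.05.

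Kar4 libraries had a larger share of their sites on chromosome 3 than any other library. It was 8.09% in Kar4 replicate 1 (7.74 to 8.45) and 8.58% in Kar4 replicate 2 (8.14 to 9.03). The mean of the Kar4 replicates was 8.33% ± 0.342 (SD, n = 2), against a mean of 1.93% over the other 7 multiplex fusions. The other 14 multiplex libraries lay between 1.09% in Rgm1 replicate 1 and 2.78% in Sfg1 replicate 2. The Sir4-free library had 2.91% (2.80 to 3.03). No value of another multiplex library reached either Kar4 value, and the intervals did not overlap. With 2 replicates a group, no test was made of these shares.

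**Figure D1:**
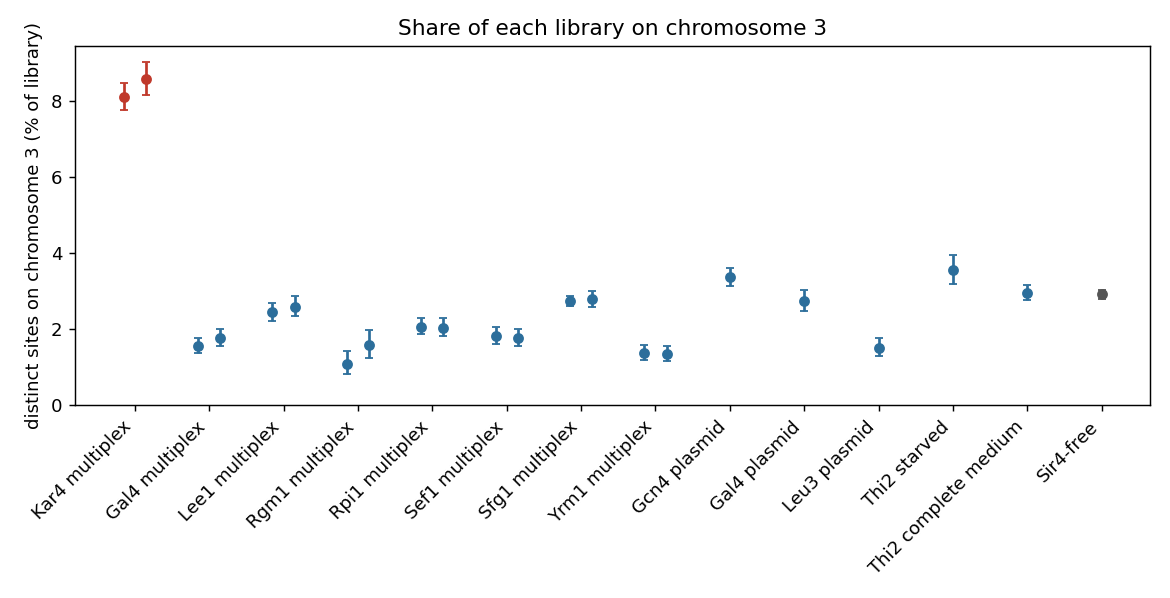
Distinct sites on chromosome 3 as percent of each library, with 1 point a library and exact 95% intervals as bars. The Kar4 libraries stand at 8.09% and 8.58%, and every other library lies at or below 3.55%, the Thi2 starved value.

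In the edgeR comparisons the mean of the other 7 fusions is a mean of log2 levels, which a fusion with few or no sites lowers. Against it, 36 of the 155 tested bins of chromosome 3 were higher for Kar4, set beside 4.6% of tested bins genome-wide. The other chromosomes had 0.917% to 9.02% of their tested bins higher. No bin of chromosome 3 was lower for Kar4 in edgeR or in DESeq2, beside 0.842% genome-wide, and 1 was lower at an unadjusted p below 0.05. The median log2 difference of the tested bins was 1.86 on chromosome 3 and 0.71 to 1.24 on the other chromosomes, with 0.89 over all tested bins. Against the Sir4-free library, 21 bins were higher for Kar4, set beside 1.92% genome-wide, and all 21 were among the 36. DESeq2 called 13 higher against the Sir4-free library and left 5 of the 21 without an adjusted p. None was lower, beside 0.0916%, with 4 at an unadjusted p below 0.05 and 0 in DESeq2. The count of 36 was 24 when either Kar4 library was left out. The filter of 10 sites over the 16 libraries can be passed by a fusion's own sites, and 10 of the 36 bins had under 10 sites in the other 14 libraries together. DESeq2 called 22 bins against the other fusions, 21 of them among the 36, and left 13 of the 36 without an adjusted p. When only sites of at least 5 reads were kept, edgeR called 21.

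The Kar4 sites were concentrated in those bins. The 36 bins held 6.12% of the sites of Kar4 replicate 1 and 6.71% of those of replicate 2, against 0.242% to 0.796% in the other 14 multiplex libraries and 0.715% in the Sir4-free library. The bins were chosen by these values. When every bin called for Kar4 in the genome was left out, chromosome 3 took 2.63% and 2.59% of the remaining Kar4 sites, against 0.822% to 2.10% in the other 14 multiplex libraries and 2.30% in the Sir4-free library. Both Kar4 values lay above all of these. The bins formed 16 stretches of adjoining bins on the chromosome, the longest of 8, 6 and 5 bins.

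The 6-bin stretch lay at the left end, where the open reading frames YCL075W and YCL074W are remnants of the native Ty5. The first 5 kb held 408 and 304 sites in the Kar4 libraries, or 1.77% (1.60 to 1.94) and 1.95% (1.74 to 2.18). The mean was 1.86% ± 0.128 (SD, n = 2) for Kar4, against a mean of 0.142% over the other 7 fusions. The Sir4-free library had 123 sites, or 0.155%. Per library, Kar4 had 11.4 times (9.32 to 14.1) and 12.6 times (10.2 to 15.7) the Sir4-free share. The other 14 multiplex libraries held 6 to 83 sites there, and both Kar4 libraries lay above all of them.

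**Figure D2:**
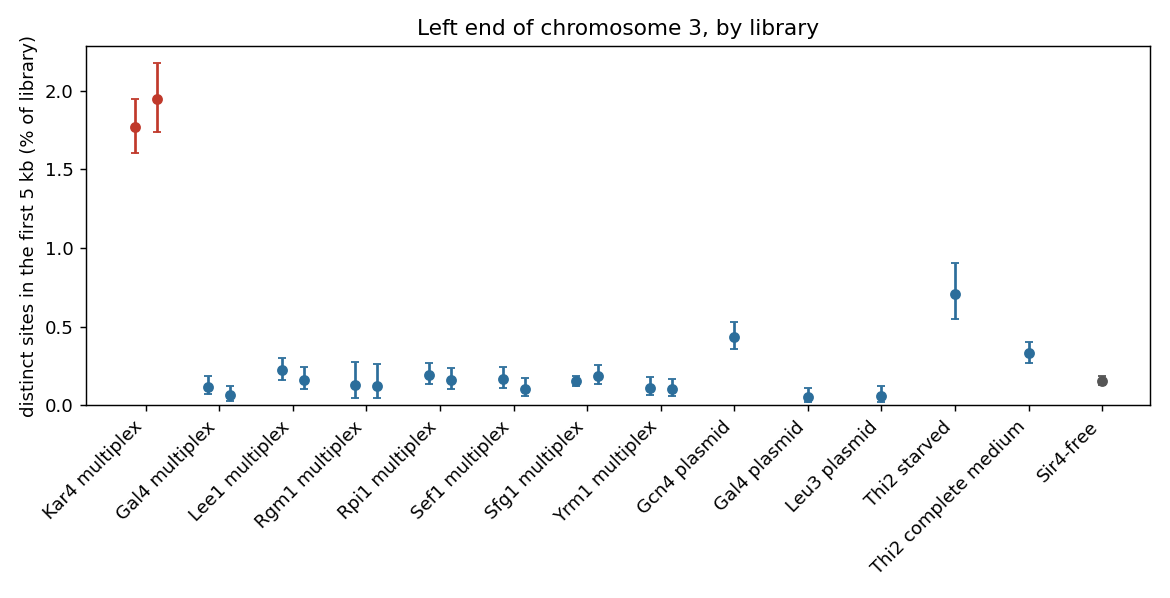
Distinct sites in the first 5 kb of chromosome 3 as percent of each library, with 1 point a library and exact 95% intervals as bars. The Kar4 libraries stand at 1.77% and 1.95%, Thi2 starved at 0.709%, Gcn4 at 0.436%, Thi2 in complete medium at 0.330% and Sir4-free at 0.155%.

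All 5 bins were higher for Kar4 than for the mean of the other 7 fusions and than for the Sir4-free library. The bin 1001 to 2000, inside YCL075W, had 278 and 218 Kar4 sites, 4 to 48 sites in the other 14 multiplex libraries and 62 Sir4-free sites. Its log2 difference from the other 7 fusions was 4.0 ± 0.17 (SE; edgeR adjusted p = 7.50e-124), and from the Sir4-free library 4.08 ± 0.27 (edgeR adjusted p = 4.98e-48). The bin 4001 to 5000, beside YCL074W, had 68 and 32 Kar4 sites and 15 Sir4-free sites, with a log2 difference from the other fusions of 3.97 ± 0.29 (edgeR adjusted p = 5.97e-39). The remaining 3 bins held 8 to 36 Kar4 sites each, with log2 differences from the other fusions between 2.98 and 3.87.

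Within the left end, Kar4 sites fell into separate clusters. Between positions 1101 and 2000 lay 271 of 408 and 217 of 304 Kar4 sites, or 66.4% and 71.4%, and the fullest 100 bp in both Kar4 libraries was 1301 to 1400, with 70 and 47 sites. A smaller cluster, 4101 to 4400, held 50 and 21 Kar4 sites. In the Sir4-free library 53 of 123 sites, or 43.1%, lay between 1101 and 2000, and its fullest 100 bp held 9 sites. Both directions were present in the larger Kar4 cluster, with 62.7% and 64.1% of the sites in the plus direction, against 58.5% in the Sir4-free library.

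**Figure D3:**
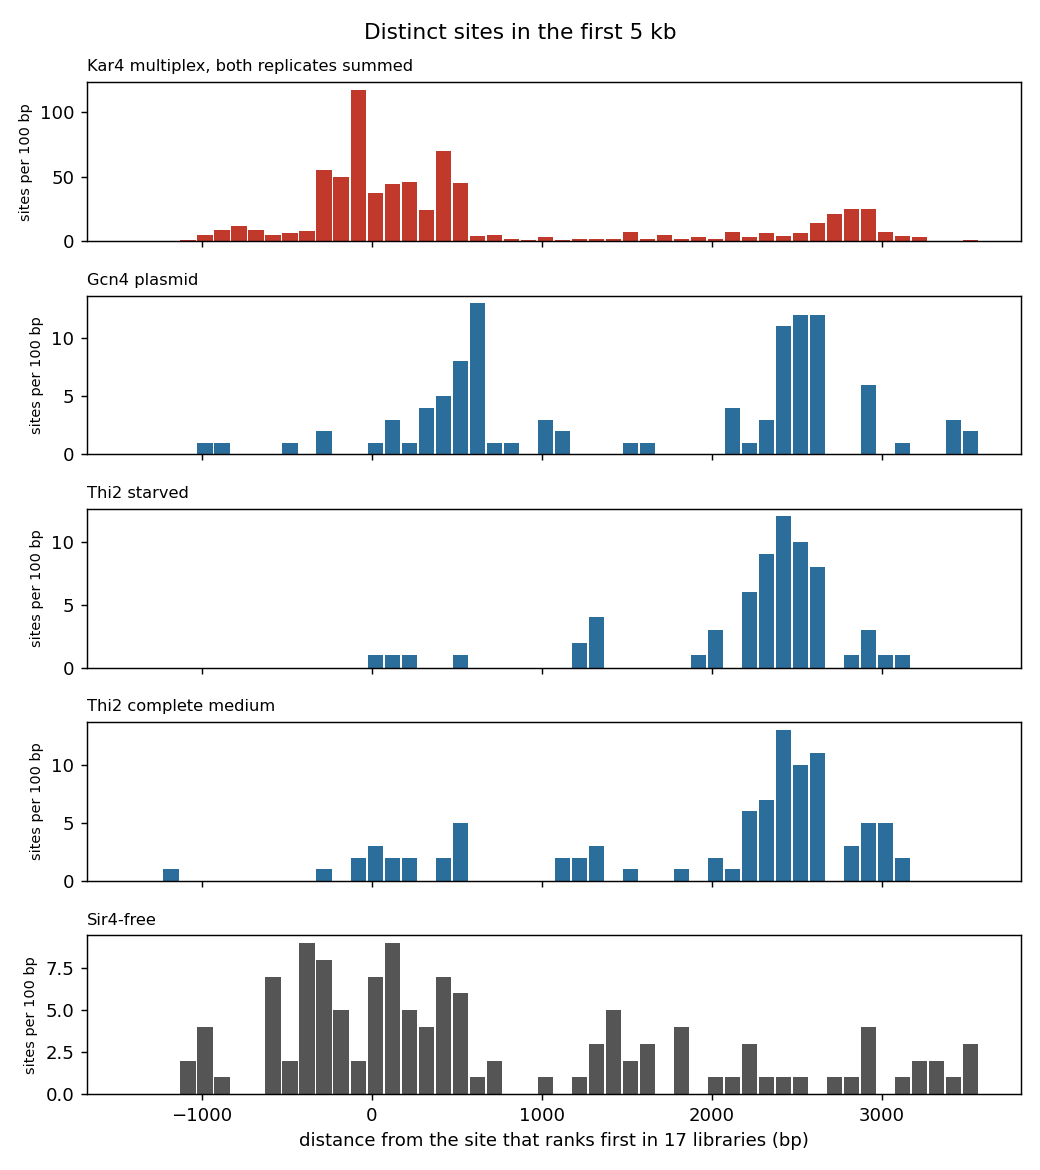
Distinct sites per 100 bp over the first 5 kb, against the distance from the position that ranks first by reads in 17 libraries. The Kar4 panel peaks just left of that position and both Thi2 panels peak to the right of it, between 3801 and 3900, while Gcn4 has high windows at 2001 to 2100 and 3901 to 4100 and the Sir4-free panel never exceeds 9 sites.

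At this end 2 positions were listed in more libraries than any other site of the genome. Position 1430, plus direction, was listed in 20 of the 22 libraries and had more reads than any other site in 17 of them. Position 4323, plus direction, was listed in the same number of libraries and ranked first in 3 of them. In the multiplex libraries position 4323 took 0.165% to 0.656% of the reads and ranked between 2 and 64. Both were missing from the Gal4 and Leu3 plasmid libraries. Together they took 1.99% to 18.3% of the reads where they were listed, the most in Sfg1 replicate 2. Each adds only 1 site to a count of sites.

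Sites at the left end were also shared between libraries more often than sites over the whole genome. Of 973 distinct sites there, 29.8% were listed in more than 1 library, against 15.5% of all distinct sites of the genome. In pool 1, leaving out the 2 positions above, 122 of the 211 left-end sites listed for the other 7 fusions were also listed for Kar4 in that pool, or 57.8%, against 35.5% that matched the Kar4 library of pool 2. In pool 2 the shares were 36.7% for the same pool and 40.0% for the other pool. The median left-end site had 1 read in the other fusions and 5.5 reads in Kar4 in pool 1, against 2 reads and 3 reads in pool 2. On the other chromosomes 4.03% of the other fusions' sites in pool 1 matched Kar4 of the same pool and 2.14% matched Kar4 of the other pool, while in pool 2 the shares were 2.54% for the same pool and 3.66% for the other. In the 8-bin Kar4 stretch at FIG2 the same-pool and other-pool shares were 30.1% and 36.6% in pool 1. They were 34.9% and 38.1% there in pool 2. The 5-bin stretch of FUS1, 68001 to 73000, also covers the bins of HIS4, BIK1 and RNQ1. Over that stretch the shares were 13.2% and 9.89% in pool 1, and 11.1% and 14.3% in pool 2. The Kar4 libraries that were matched differ in size. Without the 2 positions they held 406 left-end sites in pool 1 and 302 in pool 2, and on the other chromosomes 21228 and 14276. A larger Kar4 library offers more sites to match, and its part in these shares was not tested. The part that shared sites take in the left-end counts of the other fusions was not tested either.

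No other chromosome end was like it in the Kar4 libraries. Among the 31 other ends, taken as the outermost 5 kb, the highest mean Kar4 share was 0.224%, at the right end of chromosome 11, and the median was 0.0495%. In the Sir4-free library 25 of the 2406 windows of 5 kb in the genome held more sites than the left end of chromosome 3, whereas 1 window did in each Kar4 library.

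The Thi2 and Gcn4 libraries were also higher at this end. In the Thi2 libraries the left end held 65 sites in starved cells and 92 in complete medium, or 4.59 times (3.34 to 6.24) and 2.13 times (1.61 to 2.82) the Sir4-free share. The Gcn4 plasmid library held 104 sites, or 2.82 times (2.15 to 3.70). The Gal4 and Leu3 plasmid libraries held 7 and 6, with ratios of 0.338 (0.133 to 0.718) and 0.364 (0.131 to 0.815). In the Thi2 library from complete medium no 5-kb window of the genome held more sites.

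For Thi2, 2 bins of chromosome 3 were higher than in the Sir4-free library in each medium, and both lay at the left end. The genome-wide share was 0.396% for starved cells and 0.119% for complete medium. The bin 3001 to 4000, at YCL074W, had 41 sites in starved Thi2 cells and 40 in complete medium, against 15 in the Sir4-free library. The ratios of shares were 23.7 (12.9 to 46.1; Fisher's exact adjusted p = 2.28e-25) and 7.61 (4.11 to 14.8; Fisher's exact adjusted p = 1.82e-09). In the neighbouring bin 4001 to 5000, starved Thi2 cells had 14 sites and complete medium 26, against 15 in the Sir4-free library, with ratios of 8.10 and 4.95. No bin of the chromosome was lower in either medium, beside 0 of tested bins genome-wide for starved cells and 0.104% for complete medium, and 15 bins for starved cells and 16 for complete medium had an unadjusted p below 0.05 in either direction.

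Between the media, 1 of 69 tested bins of chromosome 3 was higher in starved Thi2 cells, beside 0.404% genome-wide, and it was the same bin at YCL074W. Its site counts were nearly equal, 41 in starved cells and 40 in complete medium, in libraries of 9171 and 27883 sites. The ratio of shares was 3.12 (1.97 to 4.94; Fisher's exact adjusted p = 3.96e-04). The starved library had 4539295 reads and the complete-medium library 4055022, so the library with fewer sites was read more deeply. No bin was lower in starved cells, with 9 bins at an unadjusted p below 0.05 in either direction.

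The raised stretch was narrow and one-sided. Between positions 3501 and 4100 lay 45 of the 65 left-end sites of starved Thi2 cells and 48 of the 92 in complete medium, of which 44 and 48 had the plus direction. The Gcn4 plasmid library had 43 sites in that stretch, 40 of them plus, and the Sir4-free library 7, of which 2 were plus. The Kar4 libraries had 23 and 17 there, with 7 and 6 plus. Many of these sites were identical in position and direction: the Thi2 libraries shared 32, which is 71.1% of the sites of starved cells and 66.7% of those of complete medium. On the other chromosomes the Thi2 libraries shared 6.60% of the starved and 2.16% of the complete-medium sites. The starved Thi2 library shared 17 sites of the stretch with Gcn4, 37.8% of its own and 39.5% of the Gcn4 sites, and neither Thi2 library nor Gcn4 shared one with the 7 of Sir4-free. How far these sites are separate insertions was not tested.

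For Gcn4, the activator of amino acid synthesis, 8 of 181 tested bins of chromosome 3 were higher than in the Sir4-free library, beside 2.22% genome-wide. None was lower, beside 0.244%, and 20 had an unadjusted p below 0.05 in either direction. Of these 8 bins 6 lay within the first 9 kb. They included the bins of GEX1, a glutathione exchanger gene, with 11 and 20 Gcn4 sites against 5 and 15 Sir4-free sites, and ratios of 7.35 (2.35 to 27.0) and 4.45 (2.17 to 9.35). The other 2 were at amino acid genes. HIS4, a histidine synthesis gene, had 107 Gcn4 sites against 43 Sir4-free sites, a ratio of 8.31 (5.78 to 12.1; Fisher's exact adjusted p = 3.44e-33). ILV6, the regulatory subunit of acetolactate synthase, had 12 Gcn4 sites against 3, a ratio of 13.4 (3.60 to 73.7; Fisher's exact adjusted p = 3.48e-04). Of the 6 genes of amino acid metabolism and uptake that were listed on this chromosome, 5 had a tested bin at their 5′ end and these 2 were called.

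HML and MAT held few sites over the 22 libraries together, and HMR did not. HML had 4 sites in the 22 libraries together, 2 of them Sir4-free, 1 from Sfg1 replicate 1 and 1 from Thi2 in complete medium. The 2 kb on its left held 95 sites and the 2 kb on its right 145. No site of any library fell between 12196 and 13945, a gap of 1748 bases. MAT had 12 sites in 4 kb, 4 of them Sir4-free, with 39 and 35 in the 2 kb on either side. HMR had 77 sites in 2 kb against 78 and 163 in its flanks, and its longest gap was 409 bases.

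**Figure D4:**
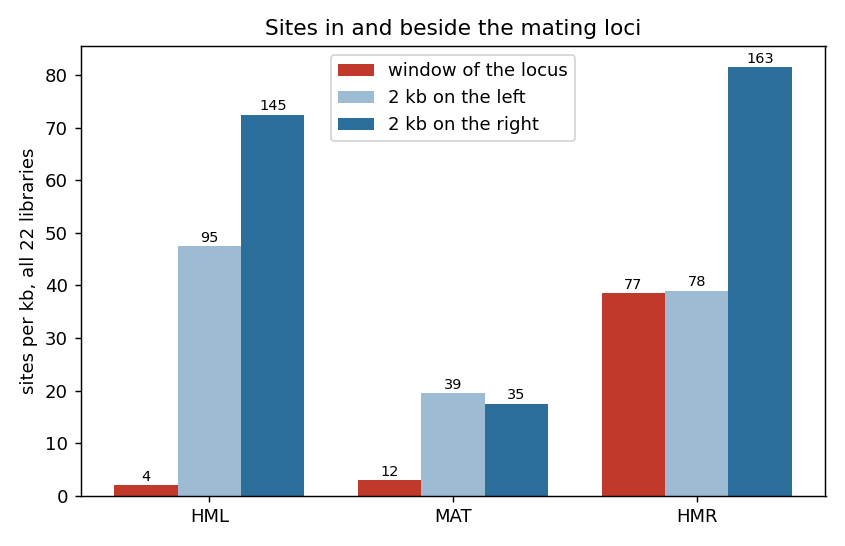
Distinct sites per kb in the windows of HML, MAT and HMR and in the 2 kb on either side, summed over all 22 libraries, with the number of sites above each bar. HML and MAT hold 2 and 3 sites per kb, below their flanks, while HMR holds 38.5, close to the 39 on its left.

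In the Sir4-free library the share was 0.00251% (0.000304 to 0.00908) at HML, 0.00503% (0.00137 to 0.0129) at MAT and 0.0201% (0.0115 to 0.0327) at HMR. Of the 6025 windows of 2 kb in the genome, 5384 held more Sir4-free sites than HML and 1474 held more than HMR. Of the 3008 windows of 4 kb, 2918 held more than MAT. HML and MAT could not be tested bin by bin, because their bins did not reach the minimum number of sites. No HML site was listed in 15 of the 16 multiplex libraries, and in the one of these with most sites, Kar4 replicate 1, the upper limit that 0 sites sets on the share is 0.0130%.

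The HMR bins passed the filter, and none was called in any comparison. Kar4 had 5 and 6 sites at HMR, against 0 to 16 in the other 14 multiplex libraries and 16 in the Sir4-free library. The Kar4 shares were 1.08 times (0.308 to 3.08) and 1.91 times (0.612 to 5.14) the Sir4-free share, so a difference was not detectable at this depth. The HMR bin 293001 to 294000 had a log2 difference of 2.47 ± 1.00 (SE) between Kar4 and the other fusions, with an edgeR adjusted p of 0.138. Thi2 in complete medium had 13 HMR sites, 2.32 times the Sir4-free share (1.03 to 5.14), and the bin with the larger difference had a Fisher's exact adjusted p of 0.559. The starved Thi2 library had 2 sites. HML, MAT and HMR share long stretches of sequence, with the treatment of reads that match several places not given in the sources used here, and its part in these counts was not tested.

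Beyond HMR, the bin 295001 to 296000 was called for 2 fusions. Sef1 had 8 and 7 sites there, with a log2 difference from the other fusions of 2.02 ± 0.61 (edgeR adjusted p = 0.0285). Sfg1 had 27 and 13, with a log2 difference of 1.86 ± 0.47 (edgeR adjusted p = 0.00672), where its median over all tested bins was 1.20. In the Sir4-free library 26 sites fell there. Neither fusion was called against the Sir4-free library in this bin, with log2 differences of 0.73 ± 0.55 for Sef1 and 0.59 ± 0.43 for Sfg1 (edgeR adjusted p = 0.490 and 0.989). Both calls were lost in DESeq2, with adjusted p of 0.245 and 0.0572.

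The 8-bin stretch of Kar4 lay at FIG2, from 262001 to 270000, and held 563 and 385 Kar4 sites, against 156 in the other 14 multiplex libraries together and 65 in the Sir4-free library. Of the stretches called against the other fusions it was the second longest for Kar4 in the genome, after 1 of 10 bins on chromosome 14, and of those called against the Sir4-free library it was the longest. In 3 of its 8 bins, 265001, 268001 and 269001, the other 14 libraries held 8, 0 and 2 sites, so those bins passed the filter of 10 sites only through Kar4 itself. The length of the stretch and its place among the longest rest in part on these bins, so they are a description only. The fullest bin, 267001 to 268000, had 319 and 200 Kar4 sites, 0 to 6 in the other 14 multiplex libraries and 1 in the Sir4-free library. Its log2 difference was 8.64 ± 0.26 from the other fusions (edgeR adjusted p = 2.98e-234) and 9.54 ± 0.46 from the Sir4-free library (edgeR adjusted p = 1.24e-90). The next bin to the left, also at the FIG2 5′ side, had 135 and 105 Kar4 sites, 0 to 4 in the other multiplex libraries and 4 Sir4-free sites, a log2 difference from the other fusions of 6.78 ± 0.28. Within these bins the fullest 100 bp were the same in both Kar4 libraries, 267101 to 267200 with 114 and 74 sites and 266901 to 267000 with 59 and 57.

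**Figure D5:**
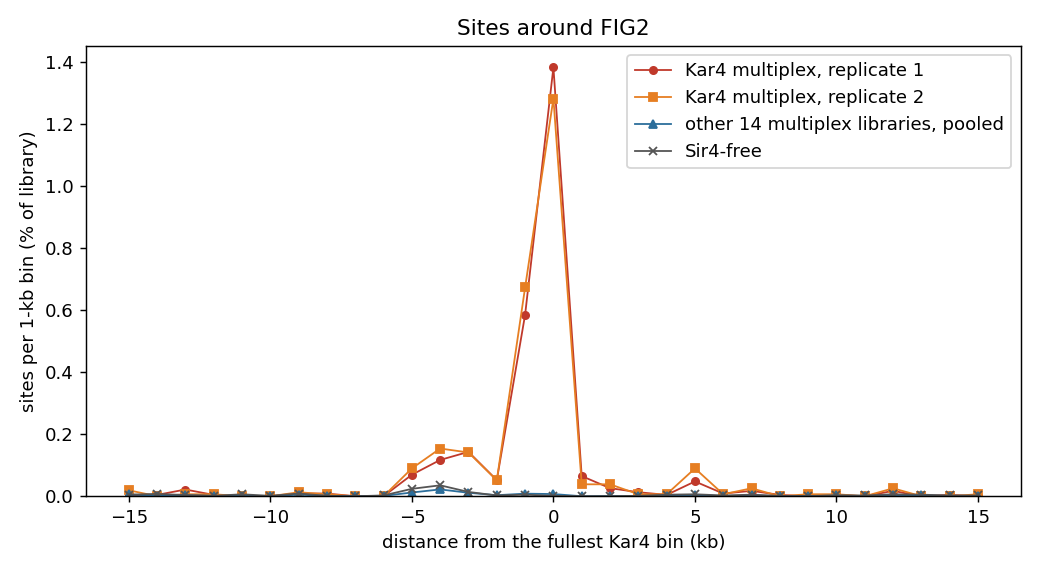
Sites per 1-kb bin as percent of the library, against the distance from the fullest Kar4 bin, for each Kar4 replicate, the other 14 multiplex libraries pooled and the Sir4-free library. Both Kar4 lines peak at 0 kb, at 1.38% and 1.28%, with a lower shoulder 3 to 5 kb to the left.

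The shoulder to the left was made of 4 bins with other genes. CSM1, a subunit of the monopolin complex, had 27 and 24 Kar4 sites and 28 Sir4-free sites. YCR087C-A had 33 and 22 Kar4 sites and 11 Sir4-free sites, and ABP1, an actin-binding protein gene, had 12 and 8 against 2. The bin of the co-repressor gene TUP1 had 16 and 14 against 19. For CSM1, YCR087C-A and TUP1 the log2 differences were 4.25 ± 0.46, 4.96 ± 0.47 and 4.31 ± 0.60 from the other fusions, and 1.94 ± 0.40, 3.35 ± 0.48 and 1.72 ± 0.49 from the Sir4-free library (edgeR adjusted p of at most 0.0241). The differences from the other fusions are from a mean of log2 levels and exceed those of pooled shares. CSM1 held 0.117% and 0.154% of the Kar4 sites, against 0.0220% in the other 14 multiplex libraries pooled. YCR087C-A held 0.143% and 0.141% against 0.0112%, and TUP1 0.0693% and 0.0897% against 0.0120%. No fold is given for ABP1, the bin 265001 named above. To the right of FIG2 the bins 268001 and 269001 had 15 and 6 and then 6 and 6 Kar4 sites, and no Sir4-free site.

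Among the 12 listed genes of mating and mating type, 6 had a tested bin at their 5′ end, and 4 were higher for Kar4 against the other fusions and also against the Sir4-free library: FIG2, FUS1, RVS161 and KAR4 itself. The other 2 tested, HMRA1 and HMRA2, are the HMR genes given above, and STE50, BUD5 and the 4 genes of MAT and HML had too few sites for a test. Over all tested bins 4.6% were higher for Kar4 than for the other fusions and 1.92% higher than in the Sir4-free library. The list was chosen with earlier results of these data known, so its count is a description. FUS1 had 130 and 77 Kar4 sites, 0 to 8 in the other 14 multiplex libraries and 13 in the Sir4-free library. Its log2 difference was 6.91 ± 0.30 from the other fusions (edgeR adjusted p = 7.11e-111) and 5.02 ± 0.34 from the Sir4-free library (edgeR adjusted p = 3.67e-47). The fullest 100 bp at FUS1 was 71501 to 71600 in both replicates, with 47 and 30 sites.

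RVS161, whose product acts in endocytosis and in cell fusion, had 66 and 65 Kar4 sites, 0 to 6 in the other multiplex libraries and 17 Sir4-free sites. Its log2 difference from the other fusions was 5.48 ± 0.32 (edgeR adjusted p = 3.82e-64), and 100 bp, 131601 to 131700, held 27 and 23 of the sites. The bin of KAR4, shared with the 5′ end of the peroxisomal gene PEX34, had 12 and 24 Kar4 sites, 0 to 9 in the other multiplex libraries and 10 Sir4-free sites, a log2 difference of 4.21 ± 0.53 (edgeR adjusted p = 1.52e-13). RHB1, a Rheb-type GTPase gene that was not on the mating list, had 46 and 41 Kar4 sites, 0 to 7 in the other multiplex libraries and 12 Sir4-free sites, a log2 difference of 4.24 ± 0.33 (edgeR adjusted p = 1.20e-35).

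The Gal4 fusions were higher at a separate group of bins on the right arm. The plasmid library had 3 of 162 tested bins higher than the Sir4-free library, beside 2.67% genome-wide, and none lower, beside 0.179%. In either direction 12 had an unadjusted p below 0.05. BUD23 and ARE1, genes for an rRNA methyltransferase and a sterol acyltransferase, share the bin 212001 to 213000, which had 55 Gal4 plasmid sites against 3 Sir4-free sites, a ratio of 109 (35.4 to 545). PWP2, a gene of small-subunit ribosome assembly, had 60 against 10, a ratio of 35.7 (18.1 to 78.2), and TVS1 had 75 against 23, a ratio of 19.4. The multiplex Gal4 libraries had 6 of 155 bins higher than the other 7 fusions, beside 3.61% genome-wide, and none lower, beside 0.147%, with 4 lower at an unadjusted p below 0.05 and 0 in DESeq2. All 3 bins were among the 6, with 46 and 47 multiplex Gal4 sites at BUD23 and ARE1, 34 and 40 at PWP2, and 43 and 48 at TVS1. The log2 differences from the other fusions were 6.15 ± 0.40 at PWP2 and 4.81 ± 0.31 at TVS1. The bin of BUD23 and ARE1 had 7 sites in the other 14 multiplex libraries together. It passed the filter of 10 only through Gal4 itself, so no multiplex fold is given for it. The plasmid and multiplex Gal4 comparisons with the Sir4-free library share that library.

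The sixth multiplex Gal4 bin was the fullest Kar4 bin at FIG2. It had 6 sites in each Gal4 multiplex library, 0 in the Gal4 plasmid library and 1 in the Sir4-free library. The log2 difference from the other 7 fusions, Kar4 included, was 3.43 ± 0.77 (edgeR adjusted p = 2.75e-04). That reference is a mean of log2 levels in which Kar4, with 319 and 200 sites in this bin, is 1 of 7 fusions. The 14 multiplex libraries other than Kar4 held 17 sites there, those of Gal4 included. The levels of the remaining fusions therefore rest on few sites. Across the 8-bin stretch, 30.1% of the other fusions' sites in pool 1 were also Kar4 sites of that pool and 36.6% were Kar4 sites of pool 2. Its part in the Gal4 call was not tested.

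Sef1 was higher in 5 of 155 bins, beside 3.66% genome-wide, and lower in none by edgeR, DESeq2 or an unadjusted p below 0.05, beside 0.0183%. PMP1, which encodes a small regulator of the plasma membrane proton pump, shares a bin with YCR025C, which had 63 and 56 Sef1 sites, 0 to 40 in the other multiplex libraries and 50 Sir4-free sites, a log2 difference from the other fusions of 3.02 ± 0.24 (edgeR adjusted p = 1.44e-34). The bin of the glucokinase gene GLK1 had 9 and 17 Sef1 sites, 0 to 4 in the other multiplex libraries and 19 Sir4-free sites, a log2 difference of 4.78 ± 0.62. CIT2, a peroxisomal citrate synthase gene, had 35 and 36 Sef1 sites and 66 Sir4-free sites, a log2 difference of 1.40 ± 0.25, and HSP30, a membrane heat shock gene, had 12 and 14 against 19 Sir4-free sites, a log2 difference of 2.16 ± 0.44. All 4 were also higher than in the Sir4-free library, with log2 differences of 1.63 to 2.77. DESeq2 called 2 of the 5 against the other fusions and 1 of the 4 against the Sir4-free library.

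Yrm1, a regulator of drug resistance genes, was higher in 2 bins, beside 4.01% genome-wide, and lower in 1, beside 0.513%. AAD3, a gene of the aryl-alcohol dehydrogenase family near the right end, had 23 and 45 Yrm1 sites, 0 to 13 in the other multiplex libraries and 20 Sir4-free sites, a log2 difference from the other fusions of 5.55 ± 0.43 (edgeR adjusted p = 1.16e-36). The bin of RRP43, an exosome gene, and the ribokinase gene RBK1 had 15 and 13 Yrm1 sites and 11 Sir4-free sites, a log2 difference of 4.10 ± 0.55 (edgeR adjusted p = 4.31e-12). HIS4 had 0 and 1 Yrm1 sites against 43 Sir4-free sites, and its log2 difference from the other fusions was -3.20 ± 0.95 (edgeR adjusted p = 0.0211; DESeq2 adjusted p = 0.191).

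Rpi1 was higher in 5 bins, beside 3% genome-wide, and lower in none by edgeR, DESeq2 or an unadjusted p below 0.05, beside 0.22%. BUD31, a splicing gene, had 23 and 14 Rpi1 sites, 0 to 21 in the other multiplex libraries and 25 Sir4-free sites, a log2 difference from the other fusions of 3.15 ± 0.45 (edgeR adjusted p = 3.90e-10) and from the Sir4-free library of 1.82 ± 0.44 (edgeR adjusted p = 0.00315). The other 4 bins, at AGP1 and KCC4, HBN1 and FRM2, HSP30, and YCR043C, had edgeR adjusted p of 0.00438 to 0.0496 and were not called against the Sir4-free library. With the pool number as a block, the YCR043C bin had an edgeR adjusted p of 0.0566. The count fell to 1 without Rpi1 replicate 1 and to 2 without Rpi1 replicate 2 or Rgm1 replicate 1, and was 3 without Gal4 replicate 1, Lee1 replicate 1 or Rgm1 replicate 2; DESeq2 called 2.

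Sfg1, with the deepest multiplex library, was higher in 19 bins, beside 8.59% genome-wide, and lower in none, beside 0.897%, with 2 lower at an unadjusted p below 0.05 and 0 in DESeq2. The smallest p belonged to CSM1, HIS4, RRP7, APA1 and the bin beside HMR, with log2 differences of 1.45 to 3.54 and edgeR adjusted p of 0.00194 to 0.00672. These ranges include RRP7, whose bin passed the filter of 10 sites only through Sfg1 itself, so they are a description only. The median log2 difference of Sfg1 from the other fusions was 1.20 over all tested bins and 1.46 on chromosome 3. CSM1 had 26 and 9 Sfg1 sites and 28 Sir4-free sites, and HIS4 had 41 and 20 against 43. None of the 19 was higher than in the Sir4-free library in edgeR or DESeq2, and 1 bin was at an unadjusted p below 0.05. The count was 0 without Sfg1 replicate 1 and 12 without Sfg1 replicate 2. DESeq2 called 2 and left 13 of the 19 without an adjusted p, and 7 of the 19, RRP7 among them, had under 10 sites in the other 14 libraries together.

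Lee1 was higher in 2 bins, beside 0.531% genome-wide, and lower in none, beside the same 0.531%, with 2 lower at an unadjusted p below 0.05 and 0 in DESeq2. The 2 bins were at YCL001W-B and at GIT1, a glycerophosphoinositol transporter gene, with log2 differences of 1.96 ± 0.55 and 2.37 ± 0.67 (edgeR adjusted p = 0.0354 and 0.0365). For Lee1 the median log2 difference was 0.97 over all tested bins and 1.09 on chromosome 3. GIT1 had 10 and 4 Lee1 sites and 25 Sir4-free sites. Neither was called by DESeq2, and no call was left without Lee1 replicate 1, Lee1 replicate 2, Gal4 replicate 2, Rgm1 replicate 1, Sef1 replicate 1 or Sfg1 replicate 2. Of the calls 1 was left without Gal4 replicate 1, Sfg1 replicate 1, Yrm1 replicate 1, Rgm1 replicate 2 or Rpi1 replicate 2. Rgm1 had no bin called on the chromosome, beside 1.41% higher and 0.897% lower genome-wide. In Rgm1 edgeR gave 0 higher and 13 lower bins at an unadjusted p below 0.05, DESeq2 called none, and 1 was lower with the pool number as a block. Its median log2 difference from the other fusions was -1.79 over all tested bins and -2.01 on chromosome 3. On the other chromosomes that median ran from -2.02 to -0.87. The Leu3 plasmid library had none called in 165 bins either, beside 1.89% higher and 0.0356% lower genome-wide, with 3 at an unadjusted p below 0.05 in Fisher's exact test. Its own share of sites on the chromosome was 1.51% (1.29 to 1.76), against 2.91% in the Sir4-free library.

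Set against the Sir4-free library, counts of called bins on the chromosome ran from 0 to 21 higher. Gal4 had 6 bins higher and 2 lower, beside 3.39% and 0.696% genome-wide, and DESeq2 called 4 higher and 2 lower. Sef1 had 4 higher and none lower, beside 2.93% and 0.293%, with 19 lower at an unadjusted p below 0.05, and DESeq2 called 1 higher and 1 lower. Yrm1 had 2 higher and 4 lower, beside 2.78% and 0.751%, and DESeq2 called 2 in each direction. Rpi1 had 1 in each direction, beside 1.61% higher and 0.11% lower, and DESeq2 called none. Rgm1 had 1 lower and none higher, beside 0.22% lower and 1.14% higher, with none higher at an unadjusted p below 0.05 and none in either direction in DESeq2. Lee1 and Sfg1 had none in either direction, beside 0.0366% and 0.0549% lower and 0 higher, with 5 and 3 bins lower at an unadjusted p below 0.05, 1 higher in each, and 0 in DESeq2. These comparisons share the Sir4-free library.

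The mean of the 8 multiplex fusions was lower than the Sir4-free library in 19 of the 155 bins, beside 7.33% genome-wide, and higher in none, beside 0.916%; 1 was higher at an unadjusted p below 0.05 and DESeq2 called none higher. The smallest p belonged to YCP4, which encodes a flavodoxin-like protein. It had 0 to 11 sites in the multiplex libraries and 38 in the Sir4-free library, a log2 difference of -3.03 ± 0.50 (edgeR adjusted p = 1.21e-06). Next came YCR043C, the vacuolar amino acid efflux gene ATG22, YCR022C and YCR102C, with log2 differences of -3.20 to -2.68. The median log2 difference of the multiplex mean from the Sir4-free library was -1.11 over all tested bins and -1.36 on chromosome 3. DESeq2 called none of the 19 and left 16 without an adjusted p. The fit with the pool number as a block called 8, and the Sir4-free library, which belongs to no pool, was put in pool 1 there.

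The Sir4-free library itself was fullest at YCR006C, with 94 sites, followed by CIT2 with 66, the native Ty5 bin in YCL075W with 62, PMP1 with 50 and HIS4 with 43, where its median bin on the chromosome held 4. At YCR006C the Kar4 libraries had 52 and 35 sites, the other 14 multiplex libraries 1 to 63, the Gal4, Leu3 and Gcn4 plasmid libraries 9, 2 and 20, and the Thi2 libraries 18 in starved cells and 19 in complete medium. Between 84001 and 93000, around LEU2, 9 bins held 11 sites in all 22 libraries, where the median bin held 19. The 3 bins of the chromosome without any site all lay there, and so did its longest gap, 2709 bases, between 88373 and 91083. All strains carry leu2∆0, a deletion of this gene. Of the 11 sites 3 were Sir4-free, 4 multiplex, 3 from the Gcn4 plasmid library and 1 from the Leu3 plasmid library.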

How the data were processed

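Per the labels and the design text, the deposited files list chromosome, position, direction and the number of reads at each Ty5 insertion site; these counts are raw read counts of the authors, without normalization. The aligner, build and read filters were left out, being not given in the sources used here. Libraries were grouped by title, 1 file a library.

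Sites listed more than once in the Sir4-free file (4019) were counted once, and sites were summed in 1-kb bins. For the 16 multiplex libraries, the 5460 bins that held 10 sites or more between them went into a quasi-likelihood fit (glmQLFit and glmQLFTest with TMM factors; R 4.3.3, edgeR 4.0.16 on limma 3.58.1). It set a fusion against the mean of the log2 levels of the remaining 7, and a second fit added the Sir4-free library. A fusion with few or no sites in a bin lowers that mean, so a log2 difference can exceed that of pooled shares. The biological coefficient of variation was 0.0908. Bins with at least 5 sites in 2 single libraries were compared by two-sided Fisher's exact tests. P values were adjusted over the genome. DESeq2 1.42.0 was an alternative. The rest used matplotlib 3.10.9, scipy 1.17.1, pandas 2.3.3 and numpy 2.4.6 in Python 3.11.15. Ratios carry conditional exact 95% intervals. Regions were given as shares without a test.

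Bins were named by R64 genes, whose upstream windows on chromosome 3 matched the sites best at a displacement of -20 bp (779 sites, against 778 without displacement; 170 genes). Named bins are all bins of the 4 regions, up to 5 called bins of smallest p per comparison and direction, the 5 fullest Sir4-free bins, runs without sites and bins at 5′ ends of listed genes; RHB1 and the bins around FIG2 were named after their values were seen. The members and lists were chosen with earlier results of these data known.

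Pool numbers mark the shared experiment described in the design text. Over 252 bins with at least 160 sites, deviations of the 28 pairs of fusions in the same pool had a median correlation of 0.0757 and ran from -0.0496 to 0.176, with 11 of them above 0.1. In simulated data the Fisher step for Gcn4 (6237 bins) called 27 of 75 bins changed 4-fold, 54 of 87 changed 8-fold and 1 of 6075 unchanged. The edgeR step for Rpi1 (5183 bins) called 60 of 99, 91 of 100 and 2 of 4984. The Fisher simulation drew both libraries from the same proportions apart from the changed bins, without variation between libraries. Its count for unchanged bins therefore does not cover such variation.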

Additional observations from a re-analysis of the deposited data

How the results depend on the processing

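For 42 results answering a comparison, 432 of 490 alternative values stayed within 1.5 times the reported count or within a share's error. A count of 0 that stayed 0 was taken as kept, so these figures include results without any call. Of 2111 values for single named bins, 84 were no longer past the threshold. The 2111 include bins that were never past it. They leave out values for which an alternative gave no adjusted p. With at least 5 reads per site, chromosome 3 bins higher numbered 21 for Kar4, 0 for Lee1 and 3 for Rpi1, lower bins 2 for Yrm1 and 9 for the multiplex mean against Sir4-free, and Sir4-free shares were 0.121% at the left end, 0 at HML, 0.00864% at HMR and 2.78% on the chromosome. With bins shifted by 500 bp, higher bins numbered 1 for Thi2 in complete medium and 3 for Rpi1, and lower bins 2 for Gal4 multiplex and 0 for Yrm1. Without the filter, higher bins numbered 0 for Lee1 and 2 for Rpi1, and lower bins 0 for Yrm1 and 34 for the multiplex mean. Without TMM factors, higher bins numbered 4 for Lee1, and lower bins 3 for Gal4 multiplex and 2 for Yrm1. DESeq2 called 22 higher bins for Kar4, 0 for Lee1, and 2 each for Rpi1, Sef1 and Sfg1, and lower bins 0 for Yrm1 and for the multiplex mean. DESeq2 gave no adjusted p to 13 of the Kar4 bins called by edgeR, 13 for Sfg1, 2 for Rpi1, 1 for Sef1 and 16 for the multiplex mean, and had one for every Lee1 and Yrm1 bin. With the replicate block, lower bins numbered 1 for Rgm1 and 8 for the multiplex mean, and the block moved no other count by over 1.5 times. Leaving the left end out of totals gave a chromosome share of 2.39% for the multiplex mean and 2.76% for Sir4-free. Leaving out 1 multiplex library at a time gave higher bins of 5 to 6 for Gal4, 24 to 38 for Kar4, 0 to 2 for Lee1, 1 to 5 for Rpi1, 4 to 6 for Sef1 and 0 to 21 for Sfg1, and lower bins of 0 to 1 for Gal4, Rgm1 and Sfg1, 0 to 2 for Yrm1 and 14 to 21 for the multiplex mean. Merging the directions of a site kept every count of the single-library comparisons within 1.5 times. The cause of these changes was not tested otherwise. Too few sites fell in HML and MAT for a test of their bins, and the Rgm1 libraries hold 4755 and 4946 sites.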
